A study of Mus musculus with 6 samples.

Results

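The genes described here are 8 apolipoprotein genes, Apoa1, Apoa2, Apoa4, Apoa5, Apob, Apoc2, Apoc3 and Apoe, and Mttp, which encodes the microsomal triglyceride transfer protein. They were taken by symbol from the deposited expression table, which gave 9 of its 45777 genes, and all 9 passed the filter on low counts. The table holds RNA-seq of whole liver from 6 C57BL/6 mouse libraries at 10 weeks of age. The 3 Pak4_KO libraries came from mice labelled Alb-Cre; Pak4 flox/flox, in which Cre recombinase is made under the albumin promoter and removes the floxed Pak4 sequence in hepatocytes. The 3 WT libraries came from mice labelled Pak4 flox/flox, without Cre, so both groups carry the floxed alleles. Which animal each library came from is not in the labels, so every p-value rests on how far libraries of 1 group differed, which may be technical. The comparison asks how loss of the kinase PAK4 from hepatocytes relates to expression of the lipoprotein genes of the liver.

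The liver packs triglyceride and cholesterol into very low density lipoprotein (VLDL) around a single large scaffold protein, apolipoprotein B. The microsomal triglyceride transfer protein loads lipid onto that scaffold in the endoplasmic reticulum, and mutations that inactivate it in people prevent the secretion of apolipoprotein B particles. Smaller apolipoproteins exchange between VLDL, chylomicrons and high density lipoprotein (HDL), where they turn lipases and receptors on or off.

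Read totals ran from 42632491 to 48044181 in Pak4_KO and from 39603272 to 52521400 in WT. Pak4 had 1.37, 2.24 and 1.90 CPM (read counts relative to the TMM-scaled library total) in Pak4_KO, against 5.93, 7.15 and 6.44 CPM in WT. On the log2 scale Pak4 differed by -1.82 with an SE of 0.24 (adjusted p = 0.0169 by edgeR's quasi-likelihood test). The adjusted p was above 0.05 when Pak4_KO replicate 3 (0.0936), WT replicate 1 (0.0562) or WT replicate 2 (0.0608) was left out, with Pak4 lower in each case. Of 13 hepatocyte markers, none was called, where 0.469% of all tested genes were. Together they held 88647 to 103990 CPM in Pak4_KO and 79069 to 102973 CPM in WT, with Alb, Fgb and Fga the largest parts. Of the 13, 7 had positive and 6 negative estimates, and 2 had an unadjusted p under 0.05, against 8.21% of all tested genes. Groups did not overlap for 4 of them, against 13.4% of all tested genes. In whole tissue, fewer cells of a type and less RNA per cell cannot be told apart.

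None of the 9 genes was called different between Pak4_KO and WT at an adjusted p under 0.05 (edgeR, Benjamini-Hochberg over 16197 tested genes), where 0.469% of all tested genes were called, 0.265% as higher and 0.204% as lower. At an unadjusted p under 0.05 there was 1, Apoc2, where 8.21% of tested genes passed. The DESeq2 Wald test also called 0 of the 9, against 2.06% of tested genes. Estimated log2 fold changes ran from -0.18 to 0.51, with 4 positive and 5 negative and a median of -0.02, beside a median of 0.004 over all tested genes. These values leave room for changes that 3 libraries a group cannot resolve, and the 95% interval of each gene is given with it below. Apart from Apoa4, Apoa5 and Apoc2, the intervals lay between a 0.714-fold and a 1.32-fold level in Pak4_KO relative to WT.

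**Figure D1:**
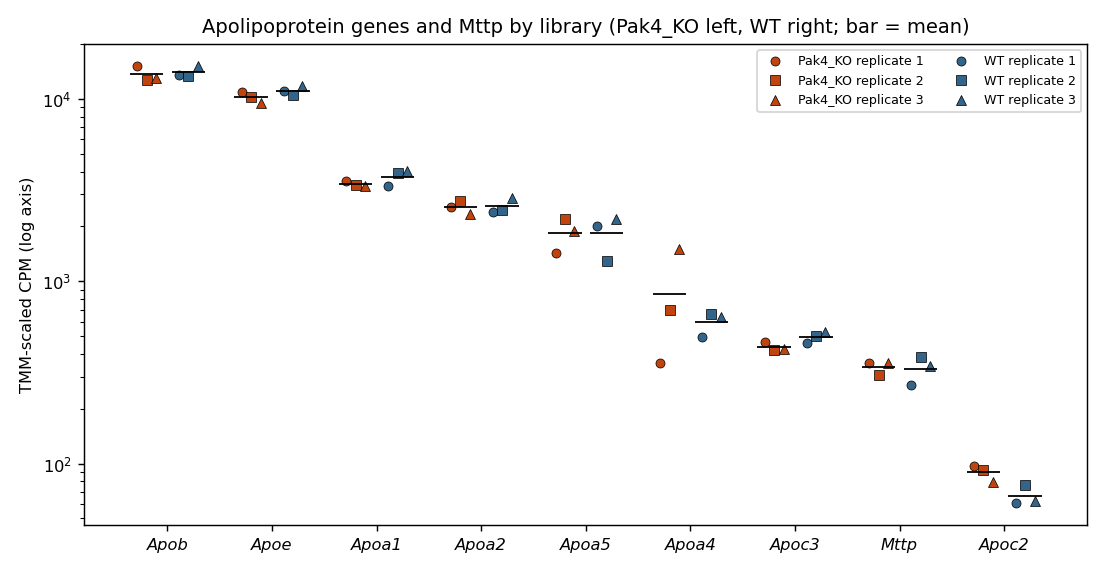
TMM-scaled CPM of the 9 genes on a log axis, with Pak4_KO libraries to the left and WT libraries to the right of each tick; symbols are replicates and bars are group means. The Pak4_KO points of Apoc2 all lie above its WT points, and the Pak4_KO points of Apoa4 spread from 355 to 1509.6 CPM.

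Together the 9 genes took 3.23% to 3.51% of reads in Pak4_KO libraries and 3.29% to 3.60% in WT libraries. Apob and Apoe made up 69.5% to 74.7% of that in Pak4_KO and 71.6% to 73.2% in WT. Apob ranked from 3 to 6 among all genes by read count and Apoe from 8 to 13, over the 6 libraries.

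Per unit of transcript length the order was different. The deposited TPM (reads per transcript length, scaled to a fixed total) put Apoe first in the mean over 6 libraries, followed by Apoa2, Apoa1, Apob, Apoc3, Apoa5, Apoa4, Apoc2 and Mttp. Apoa2 stood at 8511 ± 230.3 TPM in Pak4_KO and 8155 ± 704 TPM in WT (SD, n = 3 each). Apoa1, which followed it, stood at 6047 ± 342 TPM in Pak4_KO and 6230.01 ± 408 TPM in WT. At the other end, Mttp stood at 139.9 ± 19.0 TPM in Pak4_KO and 127 ± 18.7 TPM in WT (SD, n = 3 each). Neighbours in this order whose libraries overlapped were Apoe with Apoa2, Apob with Apoc3, Apoc3 with Apoa5, and Apoa5 with Apoa4. Apoc2 and Mttp overlapped too, at 138 TPM for Apoc2 in WT replicate 3 and 156 TPM for Mttp in Pak4_KO replicate 3. Dividing the read counts by 1 fixed length per gene, that of the GENCODE M21 principal transcript, gave the same order.

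Apob encodes the scaffold of VLDL, and in mouse liver RNA editing also yields the shorter B48 form from the same gene. The 300 bases around a RefSeq start of Apob (GRCm38.p6, chr12:7977427-7977726, plus strand, 250 bases before the start and 50 after) are shown because the gene gave the most reads of the set. Capitals mark TATAAA, the core of a TATA box, searched on the sense strand at any position in the window. TATAAA occurs in 8.32% of all 32851 promoter windows of this length, and whether this match acts as a TATA box was not tested.
Apob: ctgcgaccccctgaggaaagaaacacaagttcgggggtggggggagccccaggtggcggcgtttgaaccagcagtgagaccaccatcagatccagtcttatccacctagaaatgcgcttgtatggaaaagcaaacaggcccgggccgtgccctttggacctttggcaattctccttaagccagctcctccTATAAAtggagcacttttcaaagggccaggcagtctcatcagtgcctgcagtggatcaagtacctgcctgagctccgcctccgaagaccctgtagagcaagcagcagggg
Reads over Apob came to 15214, 12779 and 13085 CPM in Pak4_KO libraries, against 13571, 13395 and 15142 CPM in WT libraries. The groups overlapped, with the highest value in Pak4_KO replicate 1 and the lowest in Pak4_KO replicate 2. The log2 fold change was -0.04 with a 95% interval of -0.42 to 0.35 (edgeR adjusted p = 0.991), and its sign turned with library size scaling alone and with TPM.

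Mttp, the lipid loading enzyme of apolipoprotein B, stood at 354, 305 and 358 CPM in Pak4_KO, against 269.97, 386 and 341 CPM in WT. The WT libraries spanned the whole range of the Pak4_KO libraries. Its log2 fold change was 0.03 with a 95% interval of -0.34 to 0.40 (edgeR adjusted p = 0.994), and the sign turned when Pak4_KO replicate 1, Pak4_KO replicate 3 or WT replicate 1 was left out.

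**Figure D2:**
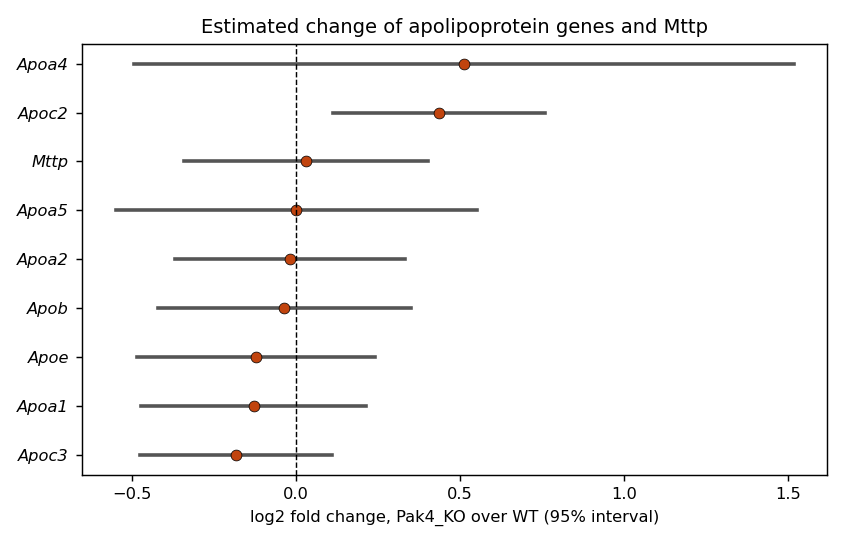
Estimated log2 fold change of Pak4_KO over WT for each of the 9 genes (points) with its 95% interval from the edgeR fit (lines), not adjusted for the number of genes. The interval of Apoc2, from 0.11 to 0.76, lies above 0, and that of Apoa4 is the widest, from -0.49 to 1.52.

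Of the regulators of plasma triglyceride clearance, Apoc2 encodes the cofactor that activates lipoprotein lipase, Apoc3 an inhibitor of that lipolysis and of remnant uptake, and Apoa5 an activator of triglyceride clearance. Apoc2 stood at 97.5, 92.1 and 79.6 CPM in Pak4_KO, against 60.7, 76.1 and 62.3 CPM in WT. All Pak4_KO libraries lay above all WT libraries, though Pak4_KO replicate 3 and WT replicate 2 were close. Of the 9 genes Apoc2 was the only member whose groups did not overlap, where 13.4% of all tested genes showed no overlap. The difference was 1.35-fold, a log2 fold change of 0.43 (SE 0.14, 95% interval 0.11 to 0.76), and it did not pass after adjustment (edgeR adjusted p = 0.401, DESeq2 adjusted p = 0.232). On the log2 scale it stayed between 0.33 and 0.54 under all 18 alternatives, with adjusted p from 0.182 to 0.842.

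Apoc2 (NCBI gene 11813, chr7:19671579-19677941, GRCm38) lies in a cluster with Apoc4, Apoc1 and Apoe that spans 29.7 kb of chromosome 7. The gap from Apoc2 to Pak4 on the same chromosome was 8.88 Mb. The stretch from the end of Apoc4 to 50 bases past the Apoc2 start is shown because this is the gene whose groups did not overlap (GRCm38.p6, chr7:19677892-19678083, minus strand, 192 bases). Capitals mark AGGTCA, the core motif of many nuclear receptors, searched on both strands and present in 16.3% of all promoter windows.
Apoc2: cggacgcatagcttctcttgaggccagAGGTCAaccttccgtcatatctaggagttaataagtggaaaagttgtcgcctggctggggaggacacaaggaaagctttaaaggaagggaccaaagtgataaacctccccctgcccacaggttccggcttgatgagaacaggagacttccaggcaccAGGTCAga

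The annotation also places the read-through gene Gm44805 across Apoc2 and Apoc4, and reads of these genes cannot be told apart where they overlap. Gm44805 stood at 9.49, 7.79 and 7.02 CPM in Pak4_KO, against 4.19, 14.0 and 7.87 CPM in WT, so its highest value was in WT replicate 2. Summed with it, Apoc2 came to 107, 99.9 and 86.6 CPM in Pak4_KO, against 64.9, 90.01 and 70.1 CPM in WT. With this sum the groups overlapped, WT replicate 2 lying above Pak4_KO replicate 3. The means were then 97.8 ± 10.4 CPM in Pak4_KO and 75.02 ± 13.2 CPM in WT (SD, n = 3 each), a ratio of 1.30. This sum gives all Gm44805 reads to Apoc2, though the gene spans Apoc4 as well. With Apoc4 also added, the sum was 347, 347 and 297 CPM in Pak4_KO, against 301, 341 and 333 CPM in WT.

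Among its neighbours, Apoc1 and Apoc4 had estimates of the opposite sign, and Tomm40 and Clptm1 of the same sign. Apoc1, whose product modulates lipase and lipid transfer activity, stood at 1556, 1665 and 1399 CPM in Pak4_KO, against 1743, 1757 and 1997 CPM in WT. All its Pak4_KO libraries were below all WT libraries, with a log2 fold change of -0.25 (95% interval -0.58 to 0.08, edgeR adjusted p = 0.731). Apoc4 averaged 232 ± 19.5 CPM in Pak4_KO and 250.1 ± 13.3 CPM in WT (SD, n = 3 each), with a log2 fold change of -0.11 (edgeR adjusted p = 0.910). Next to Apoe on its other side, Tomm40, a pore of the outer mitochondrial membrane, stood at 24.7, 28.3 and 28.4 CPM in Pak4_KO, against 18.04, 19.0 and 19.8 CPM in WT. Its groups did not overlap and the log2 fold change was 0.52 (SE 0.13), which did not pass (edgeR adjusted p = 0.232). Clptm1, on the Apoc2 side, averaged 56.9 ± 7.89 CPM in Pak4_KO and 55.6 ± 2.78 CPM in WT (SD, n = 3 each).

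Apoe encodes the apolipoprotein that LDL receptor family members bind when remnant particles are taken up, and macrophages make it as well as hepatocytes. By read count it stood at 10872, 10248 and 9545 CPM in Pak4_KO, against 11037, 10589 and 11758 CPM in WT. The groups overlapped, because Pak4_KO replicate 1 exceeded WT replicate 2. The log2 fold change was -0.12 with a 95% interval of -0.49 to 0.24 (edgeR adjusted p = 0.924). The 14 Kupffer cell and macrophage markers summed to 458 to 590 CPM in Pak4_KO and 568 to 743 CPM in WT. Of the 14, 13 had negative estimates and 0 were called, where 7983 of 16197 tested genes were negative and 0.469% called. The part of these markers in the Apoe value was not tested.

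The deposited per-length values of Apoe behaved differently from its reads. Apoe had 14701 TPM in Pak4_KO replicate 1 but 5746 and 5967 TPM in Pak4_KO replicates 2 and 3, against 14789 and 13347 TPM in WT replicates 1 and 2 and 6400.4 TPM in WT replicate 3. The libraries thus fell at high and low TPM values, both found in each group, with no matching split in the counts. Counts, library totals and FPKM together imply a transcript length of 1406, 3234 and 3248 bases in Pak4_KO libraries, against 1409.99, 1416 and 3285 bases in WT libraries. The longest of these implied lengths was 2.34 times the shortest, while none of the other 8 genes exceeded a ratio of 1.05. Among 15762 genes with a value, 496 (3.15%) had a ratio above 1.5 and 148 (0.939%) a ratio above 2. On the log2(TPM + 1) scale the Apoe difference was -0.44 (limma-trend, adjusted p = 0.846) and the longer implied length was found in 2 Pak4_KO libraries and 1 WT library; its cause was not tested. Levels of Apoe relative to the other genes depend on this. The Apoe to Apoa1 ratio of TPM was 2.36, 1.02 and 0.952 in Pak4_KO, against 2.56, 2.095 and 0.977 in WT. With 1 fixed length per gene the same ratio was 2.69, 2.67 and 2.51 in Pak4_KO, against 2.92, 2.38 and 2.59 in WT.

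**Figure D3:**
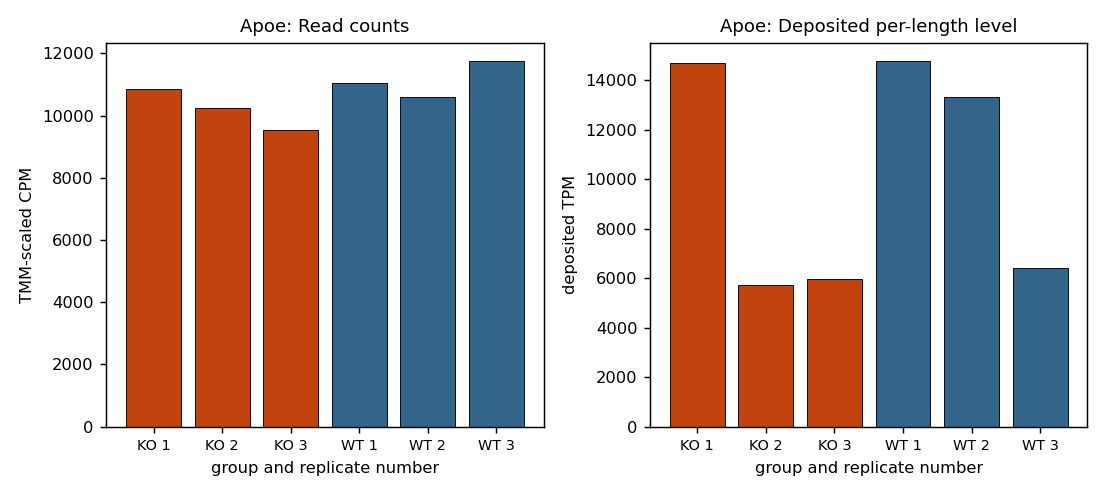
Apoe in each library as TMM-scaled CPM of its read counts (left) and as deposited TPM (right); bars are single libraries, Pak4_KO in orange and WT in blue. Counts lie between 9545 and 11758 CPM, while TPM is 5746 to 6400.4 in Pak4_KO replicates 2 and 3 and WT replicate 3 and 13347 or more in the others.

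Apoa1, Apoc3, Apoa4 and Apoa5 lie within 43.3 kb of chromosome 9 (chr9:46228630-46271921, GRCm38). Apoa1 encodes the main protein of HDL and the activator of the enzyme that esterifies its cholesterol. It stood at 3561, 3376 and 3355 CPM in Pak4_KO, against 3335, 3914 and 4005 CPM in WT. WT replicate 1 was below all Pak4_KO libraries and the other WT libraries were above them, with a log2 fold change of -0.13 (95% interval -0.47 to 0.21, edgeR adjusted p = 0.909). Apoc3 stood at 465, 422 and 425 CPM in Pak4_KO, against 459.8, 503 and 527 CPM in WT. The groups overlapped through Pak4_KO replicate 1 and WT replicate 1, and the log2 fold change was -0.18 (95% interval -0.47 to 0.11, edgeR adjusted p = 0.801).

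Apoa5 varied more within the groups than between them. It stood at 1431, 2193 and 1886 CPM in Pak4_KO, against 2010.45, 1288 and 2208 CPM in WT. The lowest values were in Pak4_KO replicate 1 and WT replicate 2, and the group means were 1837 ± 384 CPM in Pak4_KO and 1835 ± 484 CPM in WT (SD, n = 3 each). The log2 fold change was 0.001 with a 95% interval of -0.55 to 0.55 (edgeR adjusted p = 0.999), and its sign turned with DESeq2 size factors, with no filter and with the DESeq2 Wald test.

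Apoa4 encodes a protein of chylomicrons and HDL that is made in the intestine and, in mice, also in the liver. The window around its RefSeq start is shown as the gene with the widest range between libraries (GRCm38.p6, chr9:46240594-46240893, plus strand, 250 bases before the start and 50 after). Capitals mark CAAAGTNCA, a motif of the hepatocyte nuclear receptor HNF4A, searched on both strands and present in 1.41% of all promoter windows.
Apoa4: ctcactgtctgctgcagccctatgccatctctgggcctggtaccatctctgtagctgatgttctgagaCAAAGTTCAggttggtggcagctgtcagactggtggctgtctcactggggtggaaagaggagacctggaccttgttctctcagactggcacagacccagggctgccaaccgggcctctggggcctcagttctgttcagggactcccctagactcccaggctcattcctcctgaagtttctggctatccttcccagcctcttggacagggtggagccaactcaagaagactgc
It stood at 355, 698 and 1509.6 CPM in Pak4_KO, against 494, 666 and 638 CPM in WT. Both the lowest and the highest value of the 6 libraries were in Pak4_KO, in replicates 1 and 3, and the WT libraries lay between them. The highest Pak4_KO library was 4.26 times the lowest, against 1.35 times in WT. Of 1293 genes with a mean of at least 100 CPM, 5 (0.387%), Apoa4 included, had a Pak4_KO ratio at least as large, where the median gene had 1.28. Apoa4 was looked at for its wide range, which favours a large ratio. The means were 854 ± 593 CPM in Pak4_KO and 599 ± 92.5 CPM in WT (SD, n = 3 each), a log2 fold change of 0.51 with a 95% interval of -0.49 to 1.52 (edgeR adjusted p = 0.853). Without Pak4_KO replicate 3 the log2 fold change was -0.19, and without Pak4_KO replicate 1 it was 0.88, so that the direction rests on 1 library.

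**Figure D4:**
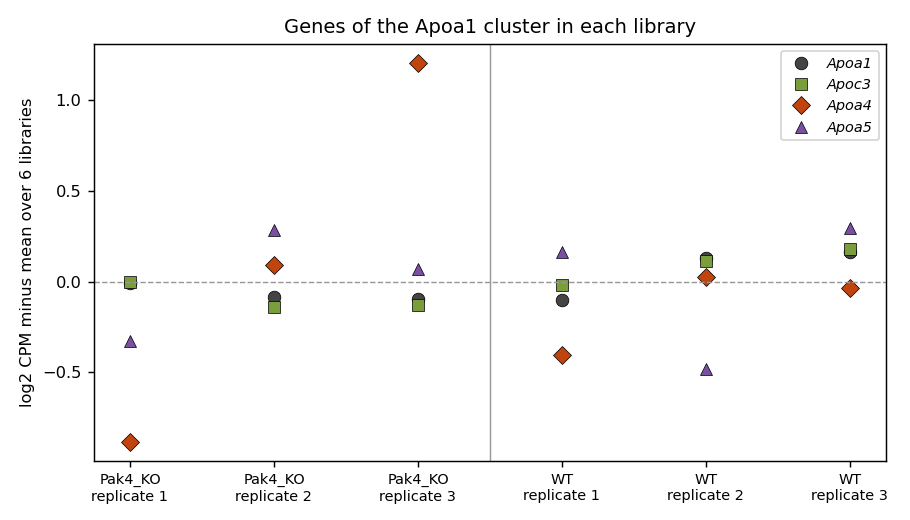
The 4 genes of the Apoa1 cluster in each library, as log2 CPM minus the mean of that gene over 6 libraries; libraries of Pak4_KO are on the left and of WT on the right. Apoa4 runs from -0.88 to 1.21 within Pak4_KO, while Apoa1 and Apoc3 stay between -0.14 and 0.18 in all 6 libraries.

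The pattern of Apoa4 over the libraries was compared with that of other tested genes. From the Apoa4 pattern, centred log2 CPM differed by a root mean square of 0.61 for Mttp, 0.62 for Apoa5 and 0.66 for Apoa1 over 6 libraries. The search for the nearest patterns left out predicted models, clones and read-through genes, and genes with a mean under 1 CPM. Among the rest the nearest were Tmem41a (0.154), Nrarp (0.199) and Camsap3 (0.202), none of which passed the test of Pak4_KO against WT. With 16197 tested genes before these exclusions and only 6 libraries, this is a description of likeness only. The enterocyte markers other than Apoa4, 11 genes, summed to 31.0 to 41.2 CPM in Pak4_KO and 26.0 to 35.7 CPM in WT. Sis, Alpi and Cdx2 had 0 reads in all 6 libraries, and 5 of the 11 had under 10 reads in the 6 libraries added together. Most of the CPM sum was Fabp2, an intestinal fatty acid binding protein, at 29.0, 35.8 and 38.95 CPM in Pak4_KO, against 24.7, 34.6 and 30.6 CPM in WT. Of the enterocyte list, Apoa4 included, 4 genes passed the filter, all 4 with positive estimates (median log2 fold change 0.59) and 0 called by edgeR. Over all tested genes 8214 estimates were positive and 7983 negative, and 0.469% were called. Slc5a1, an intestinal glucose transporter, was the 1 with an unadjusted p under 0.05 (8.21% of all tested genes) and the 1 with no overlap (13.4%). Slc5a1 was low throughout, at 1.04, 0.910 and 1.24 CPM in Pak4_KO, against 0.505, 0.758 and 0.596 CPM in WT (edgeR adjusted p = 0.581). The part of these markers in the Apoa4 values was not tested, and Fabp2 and Slc5a1 were named after their values were seen.

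Apoa2, the other main HDL protein, stood at 2558, 2746 and 2331 CPM in Pak4_KO, against 2393, 2466 and 2879 CPM in WT. The groups overlapped over most of their range, and the log2 fold change was -0.02 with a 95% interval of -0.37 to 0.33 (edgeR adjusted p = 0.996). Its sign turned with library size scaling and with TPM.

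Windows around RefSeq starts were found for 8 of the 9 genes, 12 windows in all. Counted at any position in a window, TATAAA occurred in at least 1 window of 4 genes, AGGTCA in 2 (Apoa2 and Apoc2) and CAAAGTNCA in 1 (Apoa4). A direct repeat of AGGTCA with 1 base between its copies, known for binding PPAR and HNF4A and overlapping the single AGGTCA by construction, was in none of these windows and in 0.0396% of all windows.

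The wider lipoprotein pathway gave no call either. Of 131 further genes in 6 lists, 129 were tested and 0 called (edgeR, 0.469% of all tested genes). An unadjusted p under 0.05 was found for 26 (20.2%), against 8.21% of all tested genes. The lists were chosen with earlier results of these data known, so the shares given here describe the lists and do not test them. Estimates were above 0 for 49 of the 129 genes and below 0 for 80, and their median was -0.08 on the log2 scale. Over all tested genes, 8214 estimates were above 0 and 7983 below. Groups did not overlap for 26 of the 129 (20.2%), against 13.4% of all tested genes. The genes named below were picked for the smallest p in their list, which favours separated groups. None of them overlapped between the groups.

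Other apolipoproteins had 12 of 14 tested members negative, with a median log2 fold change of -0.25, and 0 called in either direction. Saa4, a constitutive HDL apolipoprotein, stood at 156, 119.7 and 165 CPM in Pak4_KO, against 226, 296 and 231 CPM in WT (log2 fold change -0.77, SE 0.17, edgeR adjusted p = 0.162). Apol9a, of the apolipoprotein L family, averaged 30.5 ± 9.64 CPM in Pak4_KO and 52.6 ± 8.11 CPM in WT (SD, n = 3 each; edgeR adjusted p = 0.368), and its near-identical relative Apol9b may share its reads. Neither gene overlapped between the groups, which held for 6 of the 14 tested members and 13.4% of all tested genes.

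The list of VLDL assembly, lipidation and secretion had 12 of 34 members positive and 22 negative, with a median of -0.05 and 0 called. Smlr1, a small membrane protein linked to VLDL secretion, averaged 10.9 ± 0.0346 CPM in Pak4_KO and 15.9 ± 1.07 CPM in WT (SD, n = 3 each; log2 fold change -0.55, edgeR adjusted p = 0.222). Fitm2, a lipid droplet forming protein of the endoplasmic reticulum, averaged 43.3 ± 8.20 CPM in Pak4_KO and 29.0 ± 2.27 CPM in WT (SD, n = 3 each; log2 fold change 0.58, edgeR adjusted p = 0.280).

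Lipoprotein receptors and uptake genes had 8 of 21 positive and 13 negative, a median of -0.11 and 0 called. Cd36, the fatty acid and oxidized lipoprotein receptor, stood at 64.0, 61.1 and 129 CPM in Pak4_KO, against 24.1, 31.4 and 36.1 CPM in WT (log2 fold change 1.47, SE 0.30, edgeR adjusted p = 0.119). Sorl1, a sorting receptor, averaged 5.55 ± 0.778 CPM in Pak4_KO and 11.3 ± 3.20 CPM in WT (SD, n = 3 each; log2 fold change -1.02, edgeR adjusted p = 0.206). Both had no overlap between the groups, which held for 6 of the 21 tested members and 13.4% of all tested genes.

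Plasma lipases and their regulators had 7 of 15 positive, 8 negative, a median of -0.09 and 0 called. Itih5, an inter-alpha-trypsin inhibitor chain, averaged 44.1 ± 19.2 CPM in Pak4_KO and 20.7 ± 4.16 CPM in WT (SD, n = 3 each; edgeR adjusted p = 0.270). Its Pak4_KO and WT values did not overlap, which held for 4 of the 15 tested members and 13.4% of all tested genes.

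Genes of HDL formation and cholesterol efflux had 5 of 12 positive, 7 negative, a median of -0.14 and 0 called. Pctp, a phosphatidylcholine transfer protein, stood at 147, 108 and 117 CPM in Pak4_KO, against 49.2, 86.0 and 62.5 CPM in WT (log2 fold change 0.91, SE 0.22, edgeR adjusted p = 0.204). Abcg8, of the sterol export pump of the canalicular membrane, averaged 33.8 ± 5.88 CPM in Pak4_KO and 51.8 ± 16.9 CPM in WT (SD, n = 3 each; edgeR adjusted p = 0.517).

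Transcription regulators of apolipoprotein genes had 15 of 34 positive, 19 negative, a median of -0.02 and 0 called. Foxa3, a forkhead factor of liver genes, stood at 15.7, 20.6 and 15.04 CPM in Pak4_KO, against 23.5, 28.6 and 32.2 CPM in WT (log2 fold change -0.72, SE 0.18, edgeR adjusted p = 0.235). Irf2bp2, a transcriptional corepressor, averaged 57.7 ± 7.17 CPM in Pak4_KO and 41.5 ± 6.89 CPM in WT (SD, n = 3 each; edgeR adjusted p = 0.461).

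**Figure D5:**
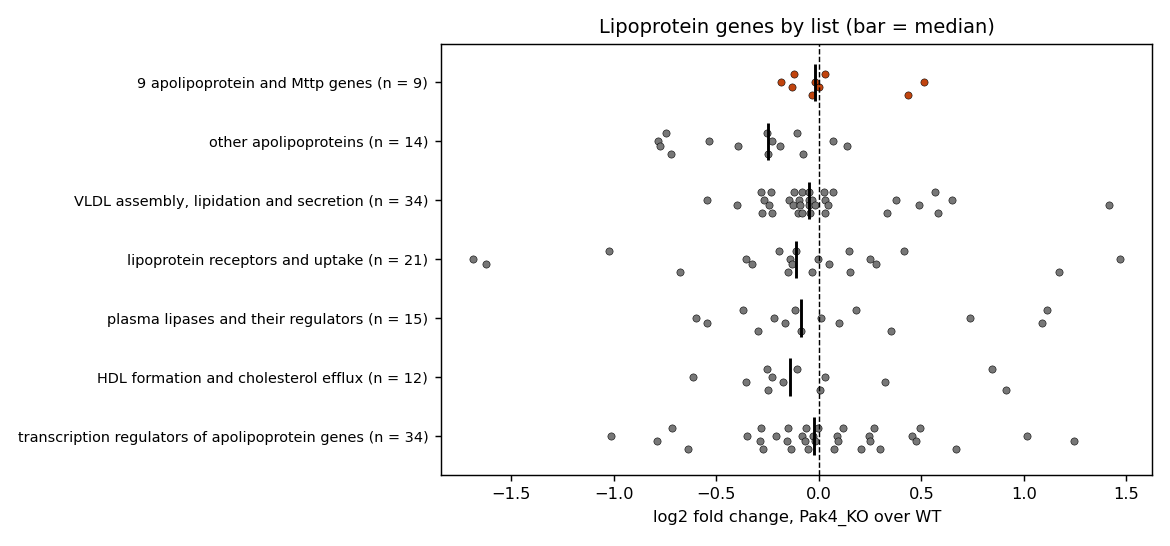
Estimated log2 fold change of Pak4_KO over WT for the 9 genes (orange, top row) and for the tested genes of 6 related lists (grey, 1 point a gene); black bars are medians. The 9 genes lie between -0.18 and 0.51, and medians of the lists run from -0.25 for other apolipoproteins to -0.02 for the transcription regulators.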

How the data were processed

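RNA-seq libraries were made from 1 µg of total liver RNA with a kit that marks strand, as the labels' protocols state. Tools named by the submitters' processing notes include StringTie 2.1.3b, HISAT2 2.1.0 and Bowtie2 2.3.4.1, with build mm10. For the annotation, strand setting and multiply matching reads, no source used here gives the choice. Raw read counts, FPKM and TPM per gene and library were deposited by the authors in 1 table, per the file headers. Gene positions and promoter windows came from RefSeq (GRCm38.p6, the same build), which held 45679 of the 45777 gene identifiers.

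A quasi-likelihood model (edgeR 4.0.16, R 4.3.3) was fitted to the counts of all 6 libraries after filterByExpr by group (16197 genes) and TMM scaling, and Pak4_KO was compared with WT by its F-test. SE is the absolute log2 fold change over the square root of F, and 95% intervals use the fit's t quantile. CPM are TMM-scaled. FPKM and TPM, as deposited, served for levels between genes; implied length is counts over library total and FPKM.

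The 9 genes, the lists and the tests were chosen with earlier results of these data known, and the promoter motifs and the fixed-length levels after seeing the values. Named were all 9 genes, Pak4, cluster neighbours, the 2 tested genes of smallest p in each list (none was called; 1 such gene is not reported here) and the 3 genes nearest in pattern to the gene with the widest range. Of the other marker lists, summed CPM in Pak4_KO and then WT were 230.4 to 438 and 245 to 361 for stellate, 374 to 536 and 325 to 449 for endothelial, 57.1 to 86.3 and 42.2 to 61.3 for cholangiocyte, 205 to 320.1 and 206 to 402 for erythroid, and 0.590 to 3.15 and 0.795 to 1.16 for adipocyte genes. Their tested members were 10 of 10, 10 of 10, 9 of 9, 5 of 7 and 2 of 6 in that order, with 0 called (0.469% of all tested genes). Positive estimates were found for 8, 10, 8, 2 and 1 of these tested members in the same order, beside 8214 of all 16197 tested genes. Of 7 exocrine pancreas genes 6 had 0 reads in every library, and the remaining gene, Cela1, stood at 9.30, 4.23 and 2.98 CPM in Pak4_KO, against 11.5, 11.4 and 10.2 CPM in WT (edgeR adjusted p = 0.503).

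Replicate numbers are shared between the groups, but same-numbered libraries did not deviate together (correlations 0.07, -0.20 and 0.15), so the numbers were not used as pairs. Alternatives were other scaling factors, filters and tests (DESeq2 1.42.0, limma 3.58.1), log2(TPM + 1) and log2(TPM + 0.1), a replicate block and each library left out.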

Additional observations from a re-analysis of the deposited data

How the results depend on the processing

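None of the 9 genes passed an adjusted p of 0.05 under any of the 18 alternatives, 1 of which, without both Pak4_KO replicate 1 and WT replicate 3, was added after seeing the data. Apoa1, Apoc2, Apoc3 and Apoe kept their direction throughout. The sign of small differences turned, the causes not tested, in the following cases. Apoa2 was 0.031 (log2) with library size only, 0.0647 with log2(TPM + 1), 0.0647 with log2(TPM + 0.1) and 0.0646 in the added alternative, and ran from -0.0827 to 0.0683 when libraries were left out. Apob was 0.0162 with library size only, 0.0449 with log2(TPM + 1) and 0.045 with log2(TPM + 0.1), and ran from -0.118 to 0.0236 without single libraries. Apoa5 was -0.00696 with DESeq2 size factors, -0.000641 with no filter and -0.00696 with the DESeq2 Wald test, and ran from -0.20 to 0.31 with libraries left out. In the same way Apoa4 ran from -0.19 to 0.93 and Mttp from -0.11 to 0.15.

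Over all genes, 76 were called, 44 with at least 10 reads in every library, 334 with the DESeq2 Wald test and 37 to 81 without single libraries. Pak4 ran from -1.99 to -1.65 (log2) without single libraries, and was -1.66 (adjusted p = 0.0646) without Pak4_KO replicate 1 and WT replicate 3. The Apoe to Apoa1 ratio averaged 1.44 in Pak4_KO and 1.88 in WT by TPM, the same by FPKM, and 2.62 in Pak4_KO and 2.63 in WT with 1 fixed length per gene. With the replicate block 73 genes and 0 of the 9 were called, and Pak4 was still called. The correlations of same-numbered libraries are a hint from the data only, and not every library resembled its own number most. Intervals and spreads rest on 3 libraries a group, so changes within the intervals given are not excluded. The intervals are not adjusted for the number of genes, so an interval that leaves out 0, as for Apoc2, is not a call.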
